A study of Mus musculus with 46 samples.

Results

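The genes described here are 28 genes of cholesterol synthesis and uptake, chosen by name from the 25494 rows of the liver RNA-seq table: 18 enzymes from acetyl-CoA to cholesterol, 4 genes that control them, and 6 genes of sterol uptake, transport and esterification. The study fed male C57BL/6 mice, bought at 5 weeks of age and first kept on chow, a lipid-rich diet (LD, labelled HFD or HF) or a carbohydrate-rich diet (CD, labelled LFD or LF) for 20 weeks. Lipid made up 60% and carbohydrate 20% of the calories of the LD, compared with 10% and 70% in the CD. No group kept on chow was analysed here, so that each difference is LD against CD and cannot be assigned to either diet alone. Whole liver was profiled by RNA-seq (5 mice per diet), by ChIP-seq of the active enhancer mark H3K27ac (3 per diet) and of the transcription factors Hnf4α and C/EBPα (2 per diet each), and by promoter capture Hi-C (PCHi-C, which maps contacts of promoters; 2 per diet, pooled by the authors).

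Cholesterol is built in the cytosol and endoplasmic reticulum by a chain of enzymes that joins acetyl-CoA into mevalonate and isoprenoid units, condenses these to squalene, folds squalene into lanosterol and then strips methyl groups and moves double bonds until cholesterol is left. The chain is controlled as a block by the transcription factor SREBP2, which is held in the endoplasmic reticulum by its escort SCAP and the sterol-sensing INSIG proteins while sterol is plentiful, and is released to the nucleus when sterol runs low. Liver is a main site of this synthesis in mammals, and it also takes up lipoprotein cholesterol, esterifies it for storage and exports it in bile and lipoproteins.

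The promoters of 3 members are shown first, since these genes differed in RNA between the diets and had peaks of both factors within 1 kb of the start site in at least 1 sample. At Msmo1 the Hnf4α peak there was found in LD replicate 1 alone, with a height (normalized tag count) of 16.5. Each run gives the 250 bases before the start site, 5′ to 3′ on the strand of the gene. The sequences are those of RefSeq (GRCm38.p6), and each matched mm9, the build of all peak files, at 1 place whose start site is that of the count table. The positions in mm9 are chr8:67212376-67212625 (minus strand) for Msmo1, chr1:171899337-171899586 (minus strand) for Hsd17b7 and chr9:110235542-110235791 (plus strand) for Scap. Capitals mark the CCAAT box (CCAAT or ATTGG), which the factor NF-Y binds, and the GC box (GGGCGG or CCGCCC), which factors of the Sp1 family bind.
Msmo1: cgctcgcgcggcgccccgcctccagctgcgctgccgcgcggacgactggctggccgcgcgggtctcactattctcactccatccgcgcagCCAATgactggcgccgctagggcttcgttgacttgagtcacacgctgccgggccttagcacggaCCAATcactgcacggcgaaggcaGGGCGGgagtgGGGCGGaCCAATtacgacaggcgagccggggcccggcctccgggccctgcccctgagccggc
Hsd17b7: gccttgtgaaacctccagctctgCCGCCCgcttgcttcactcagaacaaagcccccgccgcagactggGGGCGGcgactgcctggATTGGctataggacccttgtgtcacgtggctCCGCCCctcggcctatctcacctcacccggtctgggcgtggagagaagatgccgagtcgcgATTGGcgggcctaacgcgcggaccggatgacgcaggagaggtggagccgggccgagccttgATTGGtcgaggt
Scap: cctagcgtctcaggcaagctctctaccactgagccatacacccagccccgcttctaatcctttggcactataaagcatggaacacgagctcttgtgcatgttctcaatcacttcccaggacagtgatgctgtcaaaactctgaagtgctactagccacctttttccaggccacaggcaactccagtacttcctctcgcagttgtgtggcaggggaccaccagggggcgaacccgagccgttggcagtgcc

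The runs of Msmo1 and Hsd17b7 each held 3 CCAAT boxes, with 2 GC boxes in Msmo1 and 3 in Hsd17b7, whereas the Scap run held neither. RefSeq also gives Scap a start site 68 bases further downstream, whose window held 3 GC boxes and no CCAAT box. The RefSeq table had promoters of 21 of the 28 members. Those of Fdps, Fdft1, Sqle, Scarb1, Npc1, Stard4 and Soat2 were not among them. In windows from 250 bases before to 50 after the start site, with 1 promoter per member and both strands searched, 18 of 21 members held a CCAAT box, against 37.4% of all 32851 promoters in the table. A GC box was found in 18 of 21 members and in 35.7% of all promoters, or 59.9% of the promoters of genes tested in the RNA-seq. The sterol regulatory element was searched as TCACNCCAC, and its letters were found in the window of 1 member, Hmgcs1, and in 1.24% of all promoters. The C/EBP string TTGCNNAA was in 3 of 21 members (Nsdhl, Dhcr7 and Npc2) and in 10.8% of all promoters, and the Hnf4 string CAAAGTCCA was in 0 of 21 and in 0.475%. Strings were counted apart, so that those sharing bases each counted. These matches describe letters only.

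The RNA libraries held 31707963 to 39012699 counted read pairs, and 13494 rows passed the filter on low counts. Of the 28 members, 27 passed. The exception was Hmgcs1, the synthase that makes HMG-CoA, which the table lists in 2 rows, both on unplaced sequence of chromosome 13 and at 0 counts in all 10 mice, so that its expression was not measured here. The tested members were well covered, with at least 586 counts in every mouse (the lowest value, of Mvk). A gene was called when the adjusted p-value (edgeR quasi-likelihood test, Benjamini-Hochberg over all 13494 rows) was under 0.05 and the fold change was above 1.2, the study's own thresholds. Fold changes are LD over CD, and levels are CPM, the counts scaled to a common library size. In whole liver, fewer cells of a type and less RNA per cell cannot be told apart. Of 8 macrophage markers, 1 (Cd68) was called higher on LD, and their summed CPM ran from 498 to 1335 on LD and from 399.9 to 804 on CD. The 6 hepatocyte markers were all abundant, with a summed CPM of 17420 to 24870 on LD and 24680 to 26570 on CD and 3 of them (Ahsg, Fgb and Tat) called lower. Of 5 cholangiocyte markers, 1 (Spp1) was called higher on LD, with 66.5 ± 28.4 CPM (SD, n = 5) on LD and 16.8 ± 4.77 on CD. The other 4 were not called, and their summed CPM overlapped, with 2.17 to 7.21 on LD and 3.62 to 6.97 on CD. In addition, 0 of 3 adipocyte markers passed the filter. Of 7 stellate cell markers, 3 were called higher, with summed CPM of 685 to 982 on LD and 578 to 702 on CD. Of 7 lymphocyte markers, 1 (Cd8a) was called higher, with summed CPM of 3.63 to 9.44 on LD and 3.86 to 5.21 on CD, and of 6 endothelial markers, 1 (Lyve1) was called higher, with summed CPM of 396 to 538 on LD and 430.5 to 537 on CD. The part of the cell types in the members' values was not tested. Among the mice, CD replicate 3 stood apart by low levels of nearly all enzymes.

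On LD, 5 members were higher than on CD, all of them enzymes of synthesis (Mvk, Mvd, Fdft1, Msmo1 and Hsd17b7), and 4 were lower, the SREBP escort Scap and the uptake and transport genes Scarb1, Npc1 and Stard4. The remaining 18 tested members were not called. The 5 higher calls are 18.5% of the 27 tested members, beside 13.8% of all tested rows, and the 4 lower calls are 14.8%, beside 11.1% of all tested rows, so that the members as a whole were called about as often as other genes. The median log2 fold change of the members was 0.14, with a range of -0.80 to 0.81, and that of all tested rows was -0.0019. Of the 17 enzymes tested, 13 (76.5%) had a positive log2 fold change, beside 49.7% of all rows, with 5 called higher and 0 called lower and a median of 0.33. Without CD replicate 3, 5 enzymes were called higher, 1 (Tm7sf2) was called lower and 12 had a positive log2 fold change, while their median was 0.20 and that of all members 0.07, and without CD replicate 1 the medians were 0.41 and 0.24. In 4 members (14.8%), all 5 LD mice lay above all 5 CD mice, beside 10.2% of all rows, and in 3 members (11.1%) all LD mice lay below, beside 8.35% of all rows. By the role lists, the 6 tested genes of the mevalonate pathway had 2 higher calls and a median log2 fold change of 0.38, the 3 genes of squalene and lanosterol had 1 and 0.40, and the 8 genes from lanosterol to cholesterol had 2 and 0.23. Without CD replicate 3 these medians were 0.28, 0.28 and 0.13. The 4 control genes had 1 lower call and a median of 0.05, and the 6 genes of uptake, transport and esterification had 3 lower calls and a median of -0.23. With 1 mouse left out, the median of the control genes ran from 0.016 (without CD replicate 4) to 0.082 (without CD replicate 1). Without CD replicate 3 the control genes had 1 lower call, and the uptake, transport and esterification genes had 2 lower calls (Npc1 and Stard4) and a median of -0.23.

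**Figure D1:**
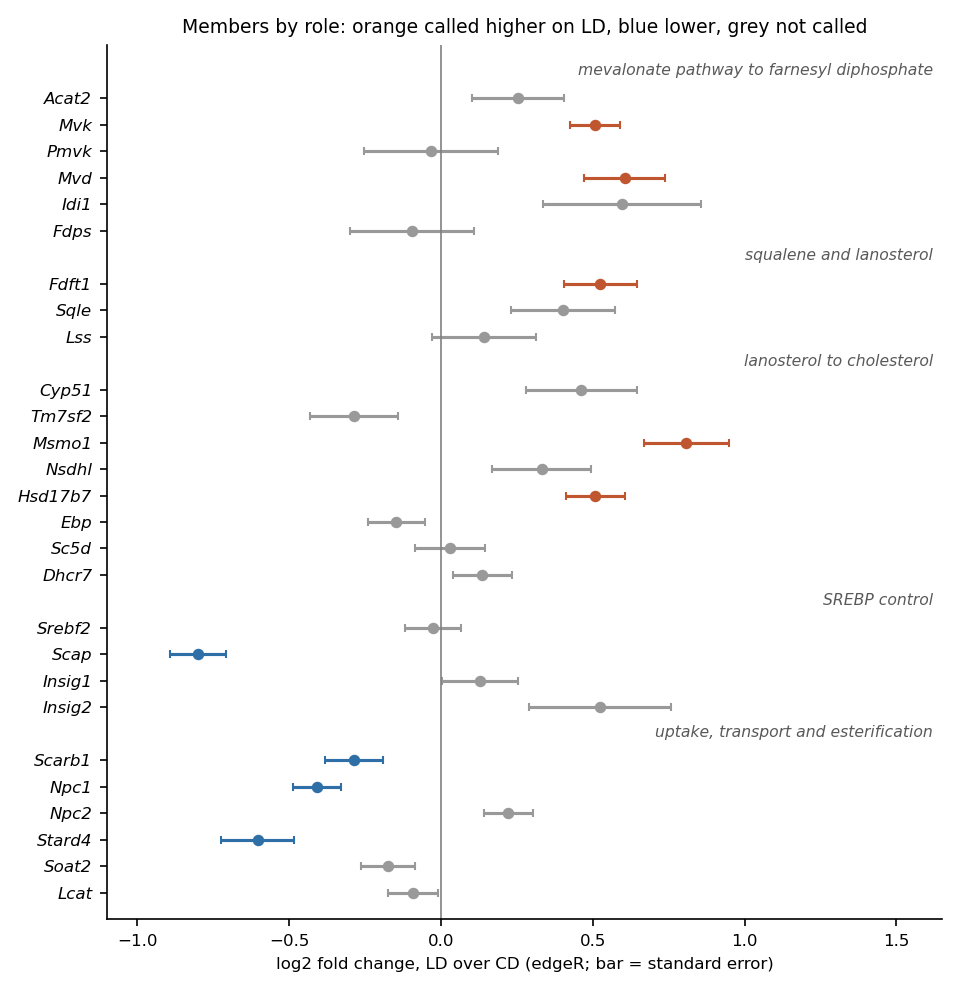
Log2 fold change of LD over CD for the 27 tested members by role, with bars of 1 standard error from edgeR (n = 5 mice per diet). The 5 members called higher on LD lie in the 3 synthesis groups, the 4 called lower lie among the control and transport genes, and 18 members were not called.

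Mvk, the kinase that phosphorylates mevalonate (chr5:114894278-114910599), had 30.5, 32.9, 31.5, 25.7 and 27.5 CPM in the 5 LD mice and 22.4, 20.6, 20.3, 18.6 and 22.3 CPM in the 5 CD mice. Every LD mouse was above every CD mouse. The log2 fold change was 0.51 ± 0.08 (SE), a fold of 1.42 (edgeR adjusted p = 0.000704). Mvd, the decarboxylase that makes isopentenyl diphosphate (chr8:124957496-124967322), stood at 46.1, 43.9, 50.6, 41.0 and 42.4 CPM on LD and at 41.5, 29.5, 23.7, 24.6 and 28 CPM on CD. Here CD replicate 1, at 41.5 CPM, reached the level of the LD mice, and the other 4 CD mice were below all of them. Its log2 fold change was 0.60 ± 0.13 (SE; edgeR adjusted p = 0.00536).

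The other enzymes of this stretch were not called. Acat2, the cytosolic thiolase of the first step, had 120.1 ± 6.84 CPM (SD, n = 5) on LD and 101 ± 25.1 on CD. Pmvk, which adds the second phosphate to mevalonate, had 76.6 ± 11.6 and 78.4 ± 24.8 CPM. Idi1, the isomerase of isopentenyl diphosphate, had a log2 fold change of 0.60, as large as that of Mvd, with a standard error of 0.26 (edgeR adjusted p = 0.12). Its values were 61.4, 58.8, 49.2, 26.8 and 62.4 CPM on LD and 39.7, 38.0, 19.2, 39.5 and 34.8 CPM on CD, so that LD replicate 4 and CD replicate 3 fell well short of their groups. Fdps, which joins the isoprenoid units to farnesyl diphosphate, stood at 406 ± 40.4 CPM on LD and 434 ± 142 on CD, with a CD range from 232 to 628 CPM that covered the LD mice entirely.

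Fdft1, the squalene synthase at the entry to the sterol branch (chr14:63763988-63798415), had 232, 227, 238, 199 and 199.8 CPM on LD and 197, 154, 112, 153 and 146 CPM on CD. The groups did not overlap, although CD replicate 1 came close to the lowest LD mice, and the log2 fold change was 0.52 ± 0.12 (SE; edgeR adjusted p = 0.0062). Tested against a fold change of 1.2, the call was lost (edgeR adjusted p = 0.0597). Sqle, the squalene epoxidase and a known control point of the pathway, had 103 ± 13.7 CPM on LD and 77.7 ± 20.9 on CD, which did not pass the test (log2 fold change 0.40, edgeR adjusted p = 0.105). Lss, the cyclase that forms lanosterol, had 103 ± 11.0 and 93.7 ± 26.3 CPM.

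Msmo1, the methylsterol oxidase that acts after Cyp51 in the removal of methyl groups from the sterol ring (chr8:67196942-67212375), had 405, 356, 326, 244 and 305 CPM on LD and 232, 188, 142, 179.5 and 193 CPM on CD. It was the member with the largest rise. The lowest LD mouse, replicate 4, was above the highest CD mouse, replicate 1, and the log2 fold change was 0.81 ± 0.14 (SE), a fold of 1.751 (edgeR adjusted p = 0.00132). Hsd17b7, the keto-reductase that acts in the same removal of methyl groups (chr1:171879668-171899336), had 146, 132, 128, 103 and 117 CPM on LD and 98.6, 94.5, 74.0, 87.6 and 86.2 CPM on CD. All LD mice were above all CD mice, with a log2 fold change of 0.51 ± 0.10 (SE; edgeR adjusted p = 0.00196). Nsdhl, the dehydrogenase that works between these enzymes, was at 92.0 ± 11.0 CPM on LD and 73.2 ± 17.7 on CD and did not pass the test (log2 fold change 0.33 ± 0.16, SE; edgeR adjusted p = 0.155).

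The remaining sterol enzymes were not called. Cyp51, the lanosterol demethylase, had 299 ± 48.5 CPM on LD and 217 ± 55.1 on CD (log2 fold change 0.46 ± 0.18, SE; edgeR adjusted p = 0.0794). Tm7sf2, a sterol reductase, was the enzyme with the lowest fold change, with 102 ± 16.5 CPM on LD and 124 ± 23.9 on CD (log2 fold change -0.29, edgeR adjusted p = 0.164). The late enzymes lay close to 0 on the log2 scale, with -0.15 for the sterol isomerase Ebp, 0.03 for the desaturase Sc5d and 0.14 for Dhcr7, the reductase of the last step. Per length of transcript, Sc5d was the most abundant member, at 779 ± 72.8 TPM (transcript abundance scaled by length; SD, n = 5) on LD and 719.6 ± 125 on CD. It was followed by Fdps with 528 ± 55.9 TPM on LD and, on the same diet, Insig1 with 498 ± 33.5 and Msmo1 with 340.5 ± 64.4, where Fdps and Insig1 did not differ beyond their spread. The lowest TPM on LD among the 27 tested members was that of Srebf2, at 10.2 ± 1.71.

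**Figure D2:**
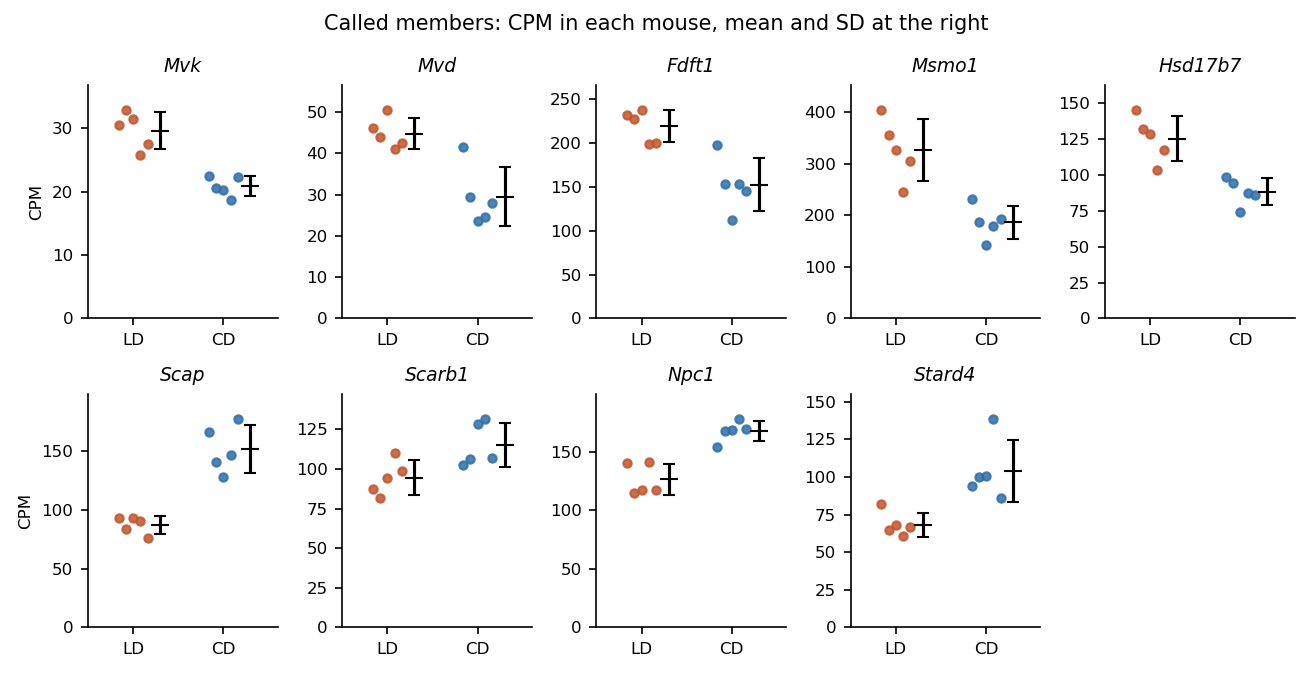
CPM of the 9 called members in each mouse (points; y axes start at 0), with the mean and SD of 5 mice at the right of each group. The points of LD and CD do not overlap for Mvk, Fdft1, Msmo1, Hsd17b7, Scap, Npc1 and Stard4, and they overlap for Mvd and Scarb1.

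Scap, which escorts SREBP proteins from the endoplasmic reticulum to the Golgi for cleavage (chr9:110235792-110287453), was the member with the largest fall. Its values were 92.7, 83.6, 93.1, 90.3 and 75.8 CPM on LD and 166, 140.2, 128, 147 and 177 CPM on CD. The highest LD mouse was far below the lowest CD mouse, and the log2 fold change was -0.80 ± 0.09 (SE), a fold of 0.57 (edgeR adjusted p = 7.36e-05). Srebf2, the gene of SREBP2 itself (chr15:81977699-82035390), had 27, 20.1, 24.4, 22.8 and 27.6 CPM on LD and 21.6, 24.9, 25.7, 25.7 and 26.2 CPM on CD. The diets overlapped over most of their range, and the log2 fold change was -0.03 ± 0.09 (SE; edgeR adjusted p = 0.855).

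Insig1, an SREBP target that retains SCAP when sterol is high (chr5:28397952-28405202), had 684, 794, 678, 688 and 638 CPM on LD and 836, 698, 601, 482 and 568 CPM on CD. The CD mice spread on both sides of the LD mice, and the log2 fold change of 0.13 ± 0.13 (SE) did not pass the test (edgeR adjusted p = 0.483). Insig2, the sister gene (chr1:123200930-123229166), had 224, 199.9, 314, 370.0 and 440.5 CPM on LD and 235, 223, 191, 148 and 280.2 CPM on CD. In 3 LD mice it was above all CD mice and in the other 2 it was within the range of the CD mice, so that the log2 fold change of 0.53 came with a standard error of 0.23 (edgeR adjusted p = 0.124). Of the 4 control genes, Scap alone passed the test.

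**Figure D3:**
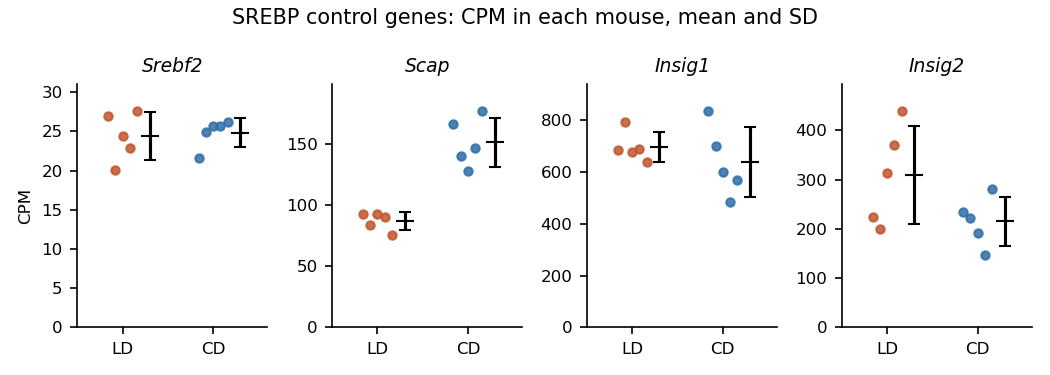
CPM of Srebf2, Scap, Insig1 and Insig2 in each mouse (points; y axes start at 0), with the mean and SD of 5 mice per diet. Scap separates the diets, with LD mice from 75.8 to 93.1 CPM and CD mice from 128 to 177 CPM, while the other genes overlap.

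Npc1, the membrane protein that exports cholesterol from lysosomes, had 141, 114, 118, 142 and 117 CPM on LD and 154, 168, 168, 178 and 169 CPM on CD. All LD mice were below all CD mice, and the log2 fold change was -0.41 ± 0.08 (SE; edgeR adjusted p = 0.00191). The call was lost when tested against a fold change of 1.2 (edgeR adjusted p = 0.0878). Npc2, the soluble lysosomal partner that hands cholesterol to Npc1, had 80.8, 100.5, 97.3, 97.7 and 95.1 CPM on LD and 89.6, 83.0, 68.7, 80.3 and 82.8 CPM on CD. Its LD mice were higher apart from replicate 1, with a log2 fold change of 0.22 ± 0.08 (SE) that narrowly missed the threshold (edgeR adjusted p = 0.055).

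Stard4, a soluble carrier of sterol between membranes and an SREBP target, had 81.8, 64.8, 67.8, 60.7 and 66.9 CPM on LD and 93.7, 99.7, 101, 139 and 86.2 CPM on CD. The diets did not overlap, and the log2 fold change was -0.60 ± 0.12 (SE; edgeR adjusted p = 0.00278). Scarb1, the receptor that takes up cholesteryl ester from high-density lipoprotein (chr5:125757457-125821464), had 87.2, 81.9, 94.5, 110.3 and 98.6 CPM on LD and 103, 106, 128, 132 and 107 CPM on CD. The diets overlapped through LD replicate 4, and the log2 fold change of -0.29 ± 0.10 (SE) passed by a small margin (edgeR adjusted p = 0.0377). This call was lost without LD replicate 1, 2, 3 or 5 or CD replicate 3 or 4, with edgeR adjusted p-values from 0.0511 to 0.108, and with the test against a fold change of 1.2 (0.593). Soat2, which esterifies cholesterol in hepatocytes, had 33.2 ± 4.29 CPM (SD, n = 5) on LD and 37.4 ± 2.5 on CD, and Lcat, which esterifies plasma cholesterol, had 226 ± 24.3 and 241 ± 15.02, neither of them called.

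Mice of a diet differed from each other in the enzymes as a block. CD replicate 3 had the lowest CPM of its diet in 16 of the 17 enzymes and the lowest of all 10 mice in 14, with a median deviation from the CD mean of -0.51 on the log2 scale. CD replicate 1 was the highest of its diet in 15 enzymes, with a median deviation of 0.34. On LD, replicate 4 was the lowest in 14 enzymes, with a median deviation of -0.24. In Fdps, CD replicate 1 had 628 CPM and CD replicate 3 had 232 CPM. The total counts of these libraries, 36753634 for CD replicate 3, 32831474 for CD replicate 1 and 33619988 for LD replicate 4, lay within the range of the others. The share of all genes in which these mice were the lowest or highest of their diet was not computed. Without CD replicate 3, 5 members were called higher and 4 lower, with Tm7sf2 (edgeR adjusted p = 0.0226) added and Scarb1 lost, and the median log2 fold change of the members was 0.07. Without CD replicate 1, 7 members were called higher and the median was 0.24, with Cyp51 (edgeR adjusted p = 0.043) and Sqle (0.0192) added, and without LD replicate 4 also 7, with Cyp51 (0.0387) and Idi1 (0.0173) added.

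**Figure D4:**
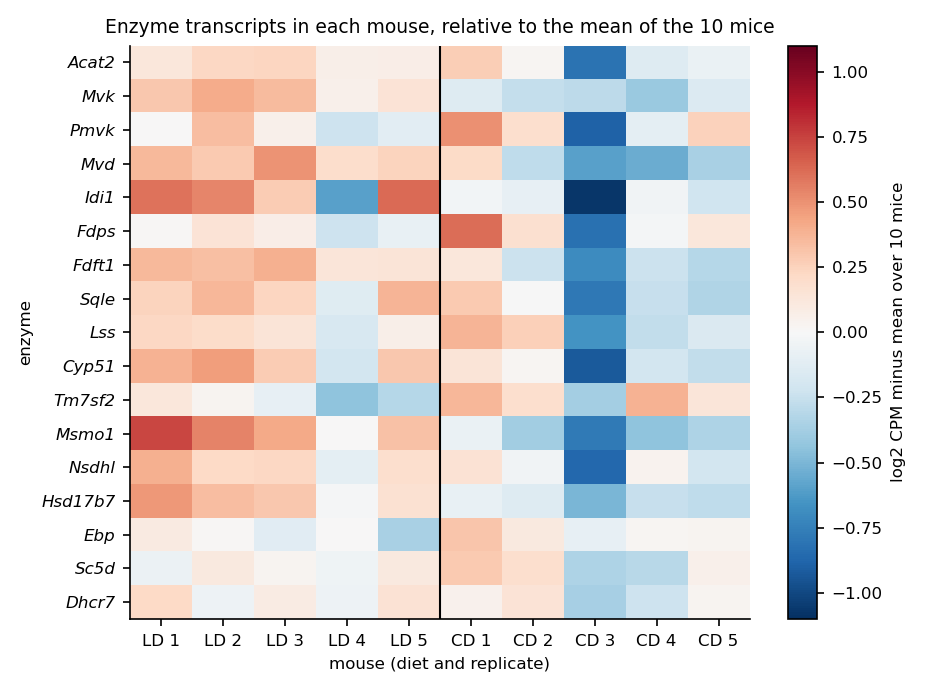
Log2 CPM of the 17 tested enzymes (rows) in each mouse (columns), as the difference from the mean of the 10 mice (color scale). The column of CD replicate 3 is low in nearly every row, that of LD replicate 4 is low among the LD mice, and that of CD replicate 1 is the highest of CD in 15 rows.

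Of 44 other genes of sterol biology listed by role (the isoprenoid branch, cleavage of SREBP, lysosomal and intracellular transport, lipoprotein receptors and efflux, and oxysterols), 43 were tested. The exception was Ch25h, under 1 CPM on both diets. Of the 43, 6 (14.0%) were called higher on LD, beside 13.8% of all tested rows, and 9 (20.9%) lower, beside 11.1%, and the median log2 fold change was -0.08. Without CD replicate 3 these were 7 higher and 8 lower, with a median of -0.07. Cyp7b1, the hydroxylase that clears oxysterols, fell from 227 ± 15.5 CPM (SD, n = 5) on CD to 91.7 ± 25.4 on LD (log2 fold change -1.31 ± 0.16, SE; edgeR adjusted p = 0.000202). Lrp1, a receptor for lipoprotein remnants, fell to 589.5 ± 74.1 CPM on LD from 980.2 ± 181 on CD (edgeR adjusted p = 0.00114), and Lipc, the hepatic lipase, fell to 116 ± 12.1 CPM from 191 ± 7.21 (edgeR adjusted p = 3.64e-05). In each of these genes all LD mice were below all CD mice. Vldlr, a receptor for triglyceride-rich lipoproteins, rose to 10.5 ± 3.3 CPM on LD from 4.86 ± 1.86 on CD (edgeR adjusted p = 0.0116). Soat1, the esterifying enzyme that macrophages also use, rose to 13.8 ± 3.12 CPM from 9.5 ± 1.28 (edgeR adjusted p = 0.0131, or 0.088 against a fold change of 1.2). Syvn1, a ubiquitin ligase of the endoplasmic reticulum, fell to 9.99 ± 1.22 CPM from 14.8 ± 3.73 (edgeR adjusted p = 0.018), a call that was lost with limma on TPM (adjusted p = 0.0758 with 1 added) and against a fold change of 1.2 (0.0959). By list, and beside the same 13.8% higher and 11.1% lower of all tested rows, receptors and efflux had 1 higher and 5 lower calls of 11, oxysterols had 0 and 2 of 5, lysosomal and intracellular transport had 3 and 1 of 9, SREBP cleavage had 1 and 1 of 9, and the isoprenoid branch had 1 and 0 of 9.

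H3K27ac was read as the bases within 5 kb of the start site that lay in the authors' peaks, for the 27 members with a placed start site. In 25 of the 27 the start site was inside a peak in all 6 samples, beside 80.8% of 13474 tested genes. The other members were Pmvk, whose start site was in no peak of any sample, and Fdft1, whose start site was in a peak in 2 CD samples and at most 415 bases from one in the others. Coverage separated the diets at 3 members. At 1 member, Insig2, all 3 LD samples were above all 3 CD samples, beside 10.7% of tested genes, and at 2 members, Pmvk and Lss, they were below, beside 3.27%. At Lss, coverage was 2950, 5550 and 2750 bases on LD and 6350, 5750 and 6150 bases on CD. At Insig2 the gap was small, with 9835, 9635 and 9635 bases on LD and 9235, 9235 and 9435 on CD, and at Pmvk the values were 2263, 2601 and 2201 on LD and 3463, 2663 and 2663 on CD. With 3 samples against 3, the smallest two-sided p-value of an exact permutation test is 0.10, so that no such difference can pass. The called members showed none, and Mvk had 2400 covered bases in every sample. The peak that holds the start site of Scap, singled out after its values were seen, was 9400, 4800 and 4400 bases wide on LD and 21600, 20800 and 20600 bases wide on CD. Coverage at Scap overlapped, with 7792, 6192 and 5592 bases on LD and 7392, 7392 and 6792 on CD. Such peaks were also narrower on LD without overlap at Stard4 and Sqle. At Stard4 the widths were 6600, 6400 and 7000 bases on LD and 7800, 7800 and 7400 on CD. The share of all genes with such a gap in width was not computed. The count of members separated by coverage was 9 without LD replicate 1, 6 without CD replicate 1 and 5 without CD replicate 3. It was 0 when coverage was taken within 2 kb. Separation is easier by construction with a sample left out, and the shares over all genes were not computed for these settings.

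Peaks of Hnf4α, a nuclear receptor that maintains the hepatocyte program, lay within 10 kb of the start site of 25 members in at least 1 sample, beside 82% of tested genes. Those of C/EBPα, a bZIP factor of hepatocytes, lay within 10 kb of 26, beside 82.7%. Mvk and Npc2 had no Hnf4α peak there, and Ebp had no C/EBPα peak. A peak within 1 kb in all 4 samples was found at 9 of 27 members for Hnf4α, beside 22.1% of tested genes, and at 8 of 27 for C/EBPα, beside 15.5%. The heights, which are normalized tag counts, were summed over all peaks within 10 kb. The largest sums for Hnf4α were at Insig2, with 225 and 215 on LD against 108 and 297 on CD, and at Lcat, with 223 and 165 on LD and 163 and 385 on CD. The CD samples lay far apart at both genes.

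The Hnf4α sums separated the diets at 3 members. Both LD samples were above both CD samples at 2, Acat2 and Idi1, beside 12.0% of tested genes with a peak, and below at 1, Mvd, beside 7.82%. At Idi1, a peak at the start site had heights of 18.5 and 14.5 on LD and was absent from the CD lists. At Mvd, the LD samples had sums of 12.2 and 10.8 and the CD samples 23.3 and 37.0, although its RNA was higher on LD. The CD samples also differed over the genome, with a median height of 21.5 in replicate 1 and 42.8 in replicate 2 at the 23344 loci found in all 4 samples, against 35.8 and 33.5 on LD. When heights were divided by these medians, 12 members separated, 7 with LD above, beside 16.3% of all tested genes with a peak, and 5 with LD below, beside 23.8%, with Acat2, Idi1 and Mvd among them. Without 1 sample, where a diet has a lone sample and separation is easier by construction, the count was 6 without LD replicate 1, 7 without LD replicate 2, 17 without CD replicate 1 and 21 without CD replicate 2. The shares over all genes were not computed for these omissions.

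The C/EBPα sums separated the diets at 10 members. Both LD samples were above at 2, Sc5d and Dhcr7, beside 9.59% of tested genes with a peak, and below at 8 (Mvd, Sqle, Cyp51, Hsd17b7, Srebf2, Scarb1, Stard4 and Soat2), beside 28.3%. The latter share of members, 8 of 26, is close to that of all genes. At the promoter of Hsd17b7 shown above, the C/EBPα peak had heights of 46.5 and 44.5 on LD and 108.5 and 83.5 on CD, while the RNA was higher on LD. At the promoter of Msmo1 the heights were 18 and 16.5 on LD and 38.5 and 30.0 on CD, again against the direction of the RNA, although its sums within 10 kb overlapped between the diets. At the start site of Scap, Hnf4α peaks had heights of 18.5 in LD replicate 2 and 12.0 and 22.2 on CD and none in LD replicate 1, so that the diets did not separate there. At Sqle, LD replicate 1 had no peak and LD replicate 2 a sum of 7.5, against 36.0 and 29.0 on CD. At Stard4, whose RNA was lower on LD, the LD samples had 20 and 13.5 and the CD samples 42.5 and 30.0. The median height at the 13813 loci found in all 4 samples was 37.5 in CD replicate 1 and 24.0 to 25.5 in the others. Divided by these medians, 8 members separated, 3 with LD above, beside 17.6% of all tested genes with a peak, and 5 with LD below, beside 21.4%. Among those 5 were Hsd17b7, Sqle, Cyp51, Scarb1 and Stard4. Without LD replicate 2 the count was 16, without CD replicate 1 it was 18 and without CD replicate 2 it was 21. Here too a lone sample makes separation easier by construction, and the shares over all genes were not computed. With 2 samples against 2, no test was made.

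**Figure D5:**
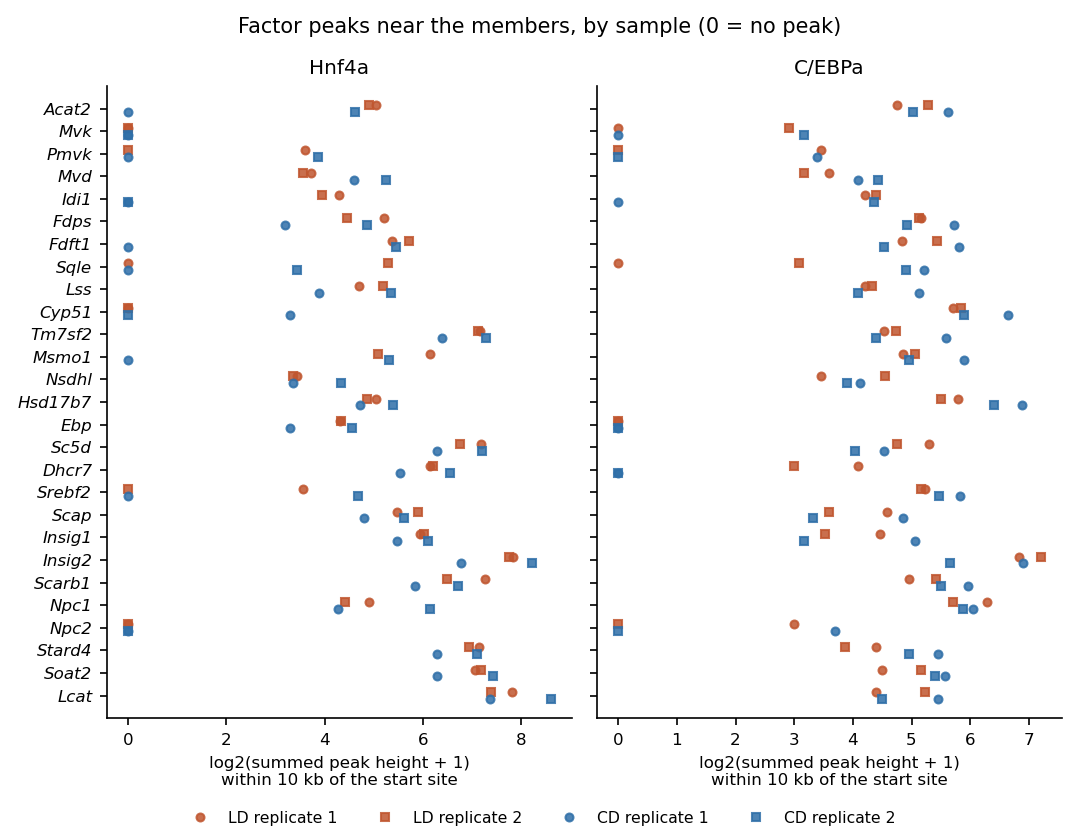
Summed peak height within 10 kb of the start site for the 27 members, as log2 of the sum plus 1, for Hnf4α and C/EBPα in each of 4 samples (circles, replicate 1; squares, replicate 2; 0 means no peak). Hnf4α replicates of CD lie apart at many members, and the C/EBPα values of CD lie above those of LD at Hsd17b7, Sqle and Stard4.

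Loci found in both samples of a diet and in neither sample of the other were found near the members at shares close to those over the genome. Within 50 kb of the start sites, 12 of 268 Hnf4α loci (4.48%) were found on LD alone, beside 4.85% of all loci, and 6 (2.24%) on CD alone, beside 2.57%. For C/EBPα, 14 loci (5.62%) were on LD alone, beside 5.18%, and 4 (1.61%) on CD alone, beside 1.77%. At Scap, an Hnf4α locus 5611 bases into the gene had heights of 22.8 and 23.0 on LD and was absent from the CD lists. At Fdft1, a locus 15237 bases downstream of the start site had 15.8 and 39 on CD and was absent from the LD lists.

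In the PCHi-C lists, 22 members were named at an end of an interaction with a CHiCAGO score (a measure of contact above the distance background) of at least 5, with 179 interactions on LD and 183 on CD, of which 132 joined the same fragments on both diets. The lists pool the replicates of a diet, so that no error can be given. The median number over these 22 members was 4.5 on LD and 3 on CD, beside 5 on each diet over 10792 tested genes with any. Msmo1, the member with the largest rise in RNA, had the most at a score of at least 5, 39 on LD and 45 on CD, with 37 shared. Of these, 3 on LD and 2 on CD reached a fragment with H3K27ac in all 3 samples of that diet. Sqle had 23 and 28, with 20 shared, and there 20 on LD and 26 on CD reached such a fragment. Insig1 had 6 on LD and 15 on CD, Soat2 had 14 and 7, Stard4 had 18 and 19, and Scap had 2 on LD and 0 on CD. At a score of at least 10 the most were at Stard4, 13 on each diet, while Msmo1 had 9 on LD and 11 on CD. No interaction was listed for Hmgcs1, Mvd, Fdps, Lss, Tm7sf2 and Npc2. The fragments of Mvk, Nsdhl, Hsd17b7, Dhcr7 and Srebf2 also hold the start site of another gene, so that their interactions cannot be assigned to the member alone.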

How the data were processed

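Liver samples were grouped by diet from their labels. Per the submitters' processing notes and the methods, the authors aligned RNA read pairs to mm9 with STAR 2.5 and deposited raw counts per RefSeq gene from featureCounts 1.5.0-p1, read by strand. The authors also deposited TPM values, in which 1 CD column carries a number of no mouse and was used as a CD replicate without a number, together with columns of their own comparison (status, log2 fold change and FDR), which were not used. For H3K27ac, the authors deposited SICER intervals of each sample, with widths and no heights. For Hnf4α and C/EBPα, the authors deposited HOMER peaks of each sample with the signal (a normalized tag count, here called height) and the fold over the control (a ratio). The authors scored PCHi-C contacts within 1 Mb on pooled replicates with CHiCAGO, and the deposited lists give this score. Lists of domains were not used, and input samples were not analysed here.

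Counts were analysed with edgeR 4.0.16 in R 4.3.3 (TMM, filterByExpr, robust quasi-likelihood fit), with DESeq2 1.42.0 and limma 3.58.1 as alternatives. TMM-scaled CPM are printed. Peaks and interactions were joined to the start sites of the count table in Python 3.11.15. The RNA calls were tried on simulated counts, and the coverage, height and separation steps on made-up intervals. SICER ends were read as included, factor peaks were placed by their centre, and peaks of different samples that overlapped by at least 1 base were joined into a locus. Libraries held 31707963 to 39012699 counts, and the spread between mice, not the counting error, sets the precision of the members. Peak lists give no total depth, and no interval is given for them.

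The members and lists were chosen with earlier results of these data known. All 28 members were named. Values in every mouse were given for called members and the 4 control genes. Of the other sterol genes, the 6 largest called changes among those averaging 1 CPM or more in either diet were named. Promoters were shown for called members with peaks of both factors within 1 kb in at least 1 sample, up to 6 and none from chromosome 18. Alternatives were another tool or scaling, the filter, TPM with a pseudocount of 1 or 0.1, a fold change test, a replicate block, other windows (2, 20 or 50 kb), a stricter fold over the control (8) or score (10), any annotated start site (GENCODE), and the omission of each sample.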

Additional observations from a re-analysis of the deposited data

Results flagged for a closer look

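In 4 of 54 groups of 5 mice tested over the members, 1 mouse lay apart from the others by Dixon's criterion, which chance alone passes in about 1 of 20 groups. Idi1 in CD replicate 3 was at 19.24 CPM, with the next mouse at 34.8 CPM, and this was the mouse with the lowest enzyme levels. Npc2 in LD replicate 1 was at 80.75 CPM, below 95.1 CPM in the next. Srebf2 in CD replicate 1 was at 21.63 CPM, below 24.9 CPM in the next. Stard4 in CD replicate 4 was at 138.8 CPM, above 101 CPM in the next.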

How the results depend on the processing

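Of 627 fold changes of 33 named genes under 19 alternatives, 601 kept their side of the threshold, 15 calls were lost, 11 were gained and 0 called values changed sign. Members called higher numbered 4 to 7 and lower 2 to 4. A test against a fold change of 1.2 left 2 members lower (1 of them among uptake, transport and esterification), 1 other sterol gene higher and 4 lower, losing Fdft1 (adjusted p = 0.0597), Npc1 (0.0878), Scarb1 (0.593), Soat1 (0.088) and Syvn1 (0.0959). Over all genes this test left 919 higher and 459 lower calls, beside 1859 and 1498 in the main test. DESeq2 added Cyp51 (0.0346) and Insig2 (0.0449), and limma on TPM with 1 added called Npc2 (0.0148) and lost Scarb1 (0.167) and Syvn1 (0.0758, or 0.0742 with 0.1 added). Over all genes, 55.4% of calls were higher with counts and 75.1% with TPM, where 6 members were higher and 3 lower. Leaving out 1 mouse moved the median log2 fold change of the members between 0.0681 (without CD replicate 3) and 0.2411 (without CD replicate 1), that of the enzymes between 0.1951 and 0.4136, of the squalene and lanosterol genes between 0.282 and 0.5396 and of the lanosterol to cholesterol genes between 0.1316 and 0.287, each at the same omissions. With TPM plus 1, the medians were 0.1341 for the control genes, -0.1524 for uptake, transport and esterification and -0.0017 for the other sterol genes, with 0.0563 for all genes. The enzyme median was 0.4342 with TPM plus 1 and 0.4406 with TPM plus 0.1, where the squalene and lanosterol median was 0.5103. The sign of Fdps, Pmvk, Sc5d and Srebf2, which were not called, changed between alternatives. No pairing of the mice by replicate number was seen, with correlations of same-numbered mice from -0.078 to 0.191, although low correlations cannot exclude one. A replicate block gave 6 members higher and 4 lower. For H3K27ac, the count of separated members (3) was 0 within 2 kb and 5 with any annotated start site, and 3 to 9 without 1 sample. For Hnf4α (3) it was 6 within 2 kb, 5 at a fold over the control of at least 8, 12 with scaled heights, and 6 to 21 without 1 sample. For C/EBPα (10) it was 14 to 21 without 1 sample. Apart from the scaled heights, the shares over all genes were not computed for these alternatives, and separation is easier with a sample left out. At a CHiCAGO score of at least 10 the median number of interactions over the 22 members named in the lists was 0.5 on LD and 0 on CD. Peak lists give no depth, and 2 or 3 samples per diet cannot show a difference by an exact test.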
